A study of Mus musculus with 6 samples.

Results

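Ifit1, Ifit2 and Ifit3, the interferon-induced genes with tetratricopeptide repeats, were chosen by their gene symbols, which 6 of the 16281 features on the array carried, 2 for each gene. The RNA came from RAW 264.7 cells, an established mouse macrophage line, and was compared on 6 two-colour arrays. Untreated cells were kept in culture for 8 h. Treated cells were cultured for the same 8 h with lipopolysaccharide (LPS), the Gram-negative outer membrane component sensed by Toll-like receptor 4, at 100 ng/ml, together with LPS-binding protein, which hands LPS to CD14, at 100 pM. Both kinds of RNA were hybridised to every array. The array titles number sets 1 to 3 in each dye orientation, without saying whether same-numbered arrays belong together. Arrays of the same number were taken here as 1 set, with 1 array that had treated RNA in Cy5 and 1 that had it in Cy3. No allele, transgene or other agent is named in the labels, which call the line 264.7 in most places and 264.4 in some. A ratio table holds no expression levels, so the cell type could not be checked against marker levels. Of 9 tested macrophage markers, 5 rose and 1 fell with treatment, within log2 ratios of -0.19 to 2.11. Of 4 fibroblast and 3 lymphocyte markers tested, 0 passed in limma, and 1 of these had an unadjusted p under 0.05. Among all 10088 tested genes, 17.3% were higher and 16.8% lower at limma's adjusted p under 0.05. An unadjusted p under 0.05 was found for 4394 of them.

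IFIT proteins are built from helical repeats that form a groove for RNA. IFIT1 holds the 5′ end of RNAs whose cap lacks methylation on the first ribose, as viral RNAs often do, and keeps them from the translation machinery. IFIT2 and IFIT3 bind each other and, in several species, IFIT1, and members of the family also contact the translation initiation factor eIF3. Their genes are scarcely expressed in resting cells and are switched on through response elements bound by interferon regulatory factors such as IRF3 and IRF9. In macrophages LPS reaches these elements through the adaptor TRIF and through interferon beta that the cells secrete.

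Every value is the log2 of treated over untreated signal, after the ratio was turned wherever treated RNA carried Cy3. A log2 ratio of 1 is thus a 2-fold higher signal in treated cells. The deposited table does not name the numerator, which was read as Cy5 because the labels call Cy3 the control and Cy5 the test. Under the opposite reading every rise would be a fall. Values of exactly 0, which made up 8.16% to 13.9% of each array, were taken as not measured.

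The first Ifit1 feature, annotated with the GenBank accession U43084, gave 4.46, 4.77 and 4.52 in sets 1, 2 and 3 where treated RNA carried Cy5. With treated RNA in Cy3 it gave 3.36, 3.53 and 3.66. All 6 arrays were far above 0, and no Cy3 value reached the lowest Cy5 value. The mean over sets was 4.05 ± 0.13 (SD, n = 3 sets), or 16.5-fold, with limma's adjusted p of 1.66e-06.

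The second Ifit1 feature, NM_008331, did not show this rise on all arrays. It was listed at exactly 0 on 3 of 6 arrays, set 3 with treated RNA in Cy5 and sets 1 and 3 with treated RNA in Cy3. Turned, its remaining values were -0.58 and -0.18 on the Cy5 arrays of sets 1 and 2 and 2.44 on the Cy3 array of set 2. As deposited, before turning, all 3 had the same sign, at -0.58, -0.18 and -2.44. Among the 12798 features measured on all 6 arrays, which do not include this one, 18 had a turned mean below -1 in the Cy5 orientation and above 1 in the Cy3 orientation, and 0 had the reverse. Only set 2 had both arrays, so this feature was not tested, and Ifit1 was represented by U43084 alone. Keeping its zeros as values and averaging both features gave Ifit1 a log2 ratio of 2.16 instead, with limma's adjusted p of 0.00047.

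Ifit2, which can promote apoptosis and restricts several neurotropic viruses in mice, was read by features that gave similar means. Feature NM_008332 stood at 4.73, 4.81 and 4.98 with treated RNA in Cy5 and at 4.18, 4.46 and 4.47 with treated RNA in Cy3. Feature U43085 stood at 5.24, 5.37 and 5.21 in the first orientation and at 3.88, 4.23 and 4.18 in the second. U43085 was the higher of the pair on all 3 Cy5 arrays and the lower on all 3 Cy3 arrays. Their set means were 4.61 ± 0.14 (24.3-fold) and 4.69 ± 0.12 (25.7-fold), with limma's adjusted p of 1.66e-06 and 1.55e-06. The difference of 0.08 ± 0.10 between the features ran from -0.03 to 0.16 over the sets and was smaller than its spread.

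Ifit3, whose product is a partner of IFIT2, was read by features that both rose but differed in size on every array. L32974 gave 5.64, 6.33 and 5.88 on the Cy5 arrays and 4.34, 4.68 and 4.66 on the Cy3 arrays. NM_010501 gave 3.50, 3.47 and 3.75 on the Cy5 arrays and 2.98, 3.31 and 3.22 on the Cy3 arrays. Their means were 5.25 ± 0.26 (38.1-fold) and 3.37 ± 0.12 (10.3-fold), and limma's adjusted p was 1.66e-06 for each. L32974 was higher on 6 of 6 arrays, by 1.36 to 2.86. Within sets the gap was 1.75, 2.11 and 1.79, with a mean of 1.88 ± 0.20 (exact sign-flip permutation test, two-sided, p = 0.25, the smallest that 3 sets allow). The mouse genome also holds Ifit3b, a close copy of Ifit3, and no feature was annotated to it. Whether a feature also picked up Ifit3b was not tested.

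**Figure D1:**
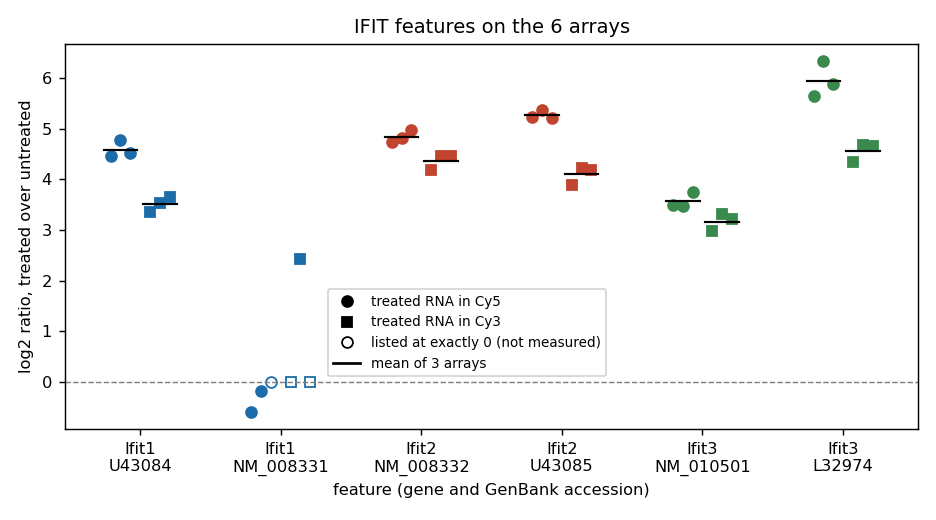
Log2 ratio of treated over untreated RNA (vertical axis) for the 6 IFIT features (horizontal axis, gene and GenBank accession) on each of 6 arrays. Circles are arrays with treated RNA in Cy5, squares arrays with treated RNA in Cy3, each in the order of sets 1 to 3, open symbols are values of exactly 0, and bars are means of 3 arrays. The 5 fully measured features lie between 2.98 and 6.33, and the Ifit1 feature NM_008331 has 3 open symbols.

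All 5 IFIT features that could be tested rose, against 17.1% of all 14343 tested features that were higher at an adjusted p under 0.05. By mean ratio L32974 ranked 3, U43085 ranked 8, NM_008332 ranked 9, U43084 ranked 20 and NM_010501 ranked 47 among them. On single arrays the rank of L32974 stayed between 3 and 6. That of NM_010501 ran from 38 to 73. No IFIT value reached the ceiling of the table, a log2 ratio of 6.64, where other features stood on the Cy5 arrays, so none of these means is a lower bound for that reason. A change in RNA per cell cannot be told apart here from a change in the share of cells that express a gene.

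Averaged over the features measured on all 6 arrays, the log2 ratios of the genes were 4.65 ± 0.12 for Ifit2 (25.0-fold), 4.31 ± 0.17 for Ifit3 (19.9-fold) and 4.05 ± 0.13 for Ifit1 (16.5-fold). Limma's adjusted p was 1.72e-06 for Ifit2 and 2.09e-06 for the other two. They ranked 2, 6 and 13 among 10088 tested genes, whose median was -0.0076. Of those genes 17.3% were higher and 16.8% lower. Without set 3 the total of called genes was 2033 instead of 3449, and the IFIT genes passed with each set left out in turn. Whether each set was a culture of its own is not in the labels, and the p-values reflect only the spread from set to set, which may be technical.

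The order of the gene averages was the same in each set. Ifit2 exceeded Ifit1 by 0.60, 0.57 and 0.62 in sets 1, 2 and 3, and Ifit3 exceeded Ifit1 by 0.21, 0.30 and 0.29. Ifit3 minus Ifit2 was -0.39, -0.28 and -0.33. Each of the 3 differences had a single sign on all 6 arrays, and each was larger than its SD over sets (0.02, 0.05 and 0.06). The exact sign-flip permutation test (two-sided) gave p = 0.25 for each of the 3 pairs and 0.25 after Benjamini-Hochberg adjustment, the smallest value possible. The place of Ifit3 rests on averaging its unequal features, whose mean gap of 1.88 exceeded each difference between genes. Its feature NM_010501 alone (mean 3.37) lay below Ifit1 U43084 (mean 4.05) on all 6 arrays. With the feature of largest ratio standing for each gene, an alternative chosen after the data were seen, Ifit3 minus Ifit2 was 0.57.

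Each fully measured IFIT feature gave a larger ratio when treated RNA carried Cy5. The gap was widest for Ifit3 L32974, at 5.95 ± 0.35 against 4.56 ± 0.19 (SD, n = 3 arrays each), or 61.8-fold against 23.5-fold. Ifit2 U43085 averaged 5.27 and 4.10, and Ifit1 U43084 averaged 4.58 and 3.51. The gap was smaller for Ifit2 NM_008332 (4.84 and 4.37) and for Ifit3 NM_010501 (3.57 and 3.17). Values of the orientations did not overlap for any of the 5. In limma's test of the within-set difference over all features, 0 of the 5 passed (adjusted p of 0.128 to 0.146, unadjusted p of 0.00041 to 0.0243), where 1 of 14343 features did, or 0.00697%, and that one had the lower ratio with treated RNA in Cy5. An unadjusted p under 0.05 was found for 3788 of the 14343 features. The larger Cy5 ratio was not particular to this family, since 65 of the 68 features with a mean above 3 shared it, with a median difference of 0.63. After quantile normalization between arrays the differences of the IFIT features ran from -0.32 to 0.39, and that of NM_008332 changed sign. The part of the dye in these gaps was not tested, and a set mean holds each orientation once.

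**Figure D2:**
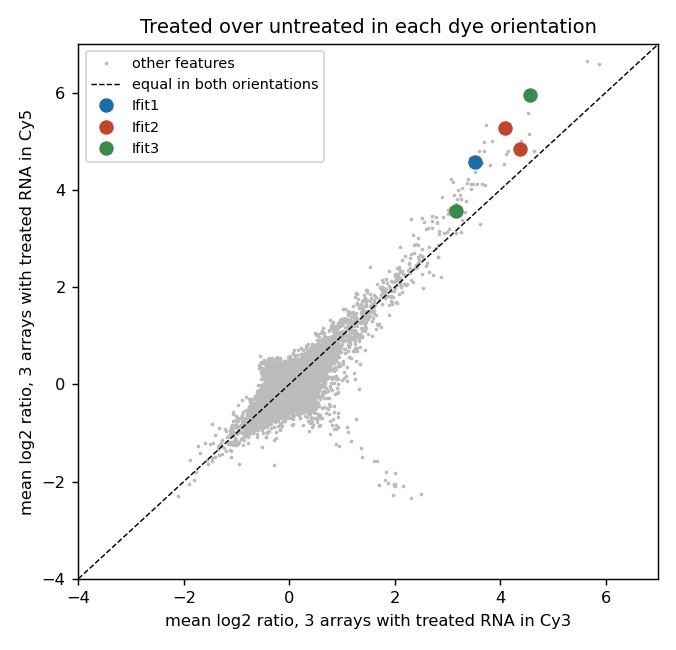
Mean log2 ratio of treated over untreated RNA over the 3 arrays where treated RNA carried Cy5 (vertical axis) against the mean over the 3 where it carried Cy3 (horizontal axis). Small points are all 12798 features measured on 6 arrays, large points the 5 IFIT features among them, and the dashed line marks equal values. The IFIT features lie above the line, as most strongly raised features do.

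The promoters of Ifit1 and Ifit3 are shown because each held a match to the core of the interferon-stimulated response element. None was found for Ifit2, the member with the largest gene mean. Whether the matches act in these cells was not tested. The sequences are RefSeq's, in build GRCm38.p6, 200 bases that end at the base before the annotated start, on the plus strand at chr19:34640689-34640888 for Ifit1 and chr19:34583329-34583528 for Ifit3. Capitals mark the core of the interferon-stimulated response element, GAAA, any 2 bases, then GAAA, here read on the opposite strand as TTTC, any 2 bases, then TTTC.
Ifit1: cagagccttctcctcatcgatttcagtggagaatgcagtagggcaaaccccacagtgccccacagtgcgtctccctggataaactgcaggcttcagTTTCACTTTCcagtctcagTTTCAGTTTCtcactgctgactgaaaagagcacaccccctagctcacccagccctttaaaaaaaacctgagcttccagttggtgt
Ifit3: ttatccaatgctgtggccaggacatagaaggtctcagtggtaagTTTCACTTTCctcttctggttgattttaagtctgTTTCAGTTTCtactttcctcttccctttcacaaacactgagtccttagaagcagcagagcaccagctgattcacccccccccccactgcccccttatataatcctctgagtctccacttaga

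Each of these promoters held 2 cores. They began 104 and 85 bases before the start of Ifit1 and 156 and 122 bases before that of Ifit3, and in both genes the distal core was TTTCACTTTC and the proximal TTTCAGTTTC. Windows of 300 bases, from 250 before to 50 after a start, were searched on both strands for 27025 genes. At least 1 core was present in 3.44% of the 32851 windows and at least 2 in 0.225%. Neither of the 2 Ifit2 windows, which belong to alternative starts, held the core, which says only that these letters are not in those windows. TATAAA, found in 8.32% of windows on the given strand, was in none of the windows of Ifit1, Ifit2 and Ifit3. Only this exact string was searched, so its absence does not mean that these promoters lack a TATA box. The Ifit3b window also had 2 cores and was identical to that of Ifit3 at 259 of 260 aligned bases (99.6%).

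Among tested genes, 22 had 2 or more cores in a window, and 17 of them (77.3%) were higher in treated cells, with a median log2 ratio of 0.82. Ifit1 and Ifit3 are themselves counted among the 22 and among the 17, and Ifit3 had the largest ratio of the 22. The share was 29.1% of 302 genes with 1 core, 16.7% of 7703 genes with none and 17.2% of the 2061 tested genes for which the table used held no window. Ifit2, at 4.65, had the largest ratio of the genes whose windows held no core. These shares are a description, and a match is not a bound site.

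The IFIT genes lie side by side on chromosome 19, where RefSeq orders them Ifit2, Ifit3, Ifit1bl1, Ifit3b, Ifit1bl2 and Ifit1. No feature was annotated to Ifit1bl1, Ifit3b or Ifit1bl2. Of the 8 nearest protein-coding genes on either side, 12 could be tested, and 3 of them rose and 2 fell. These counts are near the 17.3% higher and 16.8% lower among all tested genes, so they show nothing particular to the neighbourhood. Fas, the death receptor gene, rose by 2.72 ± 0.09, Pcgf5, which encodes a Polycomb RING finger protein, by 1.30 ± 0.06, and Stambpl1, which encodes a deubiquitinase, by 0.57 ± 0.04. The nearest tested gene on each side fell. Lipa, the lysosomal acid lipase gene, had a ratio of -0.18 ± 0.07 (limma's adjusted p = 0.033) and Pank1, a pantothenate kinase gene, one of -0.25 ± 0.07 (adjusted p = 0.0103). The 7 others did not pass. Ch25h, which encodes the interferon-responsive enzyme that makes 25-hydroxycholesterol, stood at 0.14 ± 0.10. Acta2, the smooth muscle actin gene, stood at 0.46 ± 0.45, a spread close to its mean, and Rpp30, which encodes a ribonuclease P subunit, at -0.08 ± 0.01. Lipn, Ankrd22, Htr7 and Ankrd1, each with 2 sets, ran from -0.16 to 0.08.

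**Figure D3:**
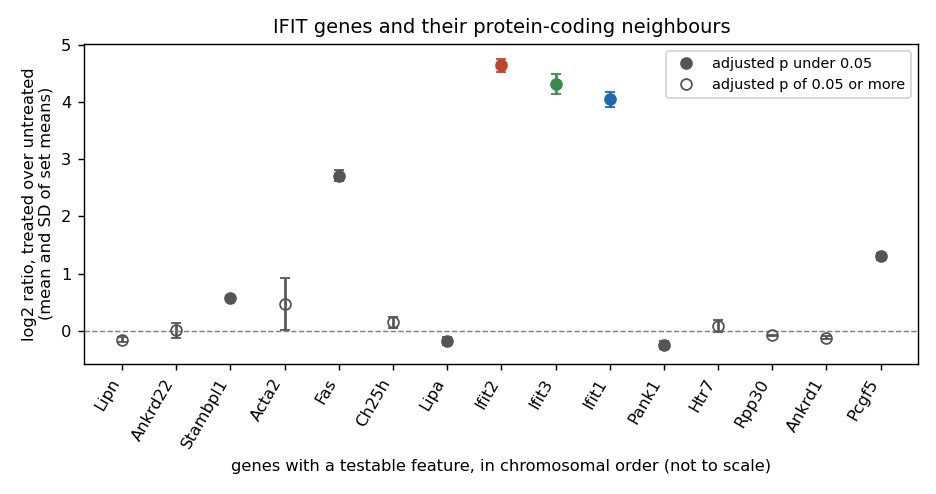
Log2 ratio of treated over untreated RNA (vertical axis, mean and SD of 3 set means, or of 2 for Lipn, Ankrd22, Htr7 and Ankrd1) for the 3 IFIT genes and 12 tested protein-coding neighbours on chromosome 19 in chromosomal order (horizontal axis, not to scale). Filled points had an adjusted p under 0.05 in limma. The IFIT genes stand at 4.05 to 4.65, and the highest neighbour, Fas, at 2.72.

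Genes with ratios closest to those of each member were found by the root mean square difference over the 6 arrays, among 9217 genes measured on all of them. The arrays repeat a single comparison, so a small difference means a ratio of similar size. Whether such genes are regulated together was not tested. Genes known only by clone, RIKEN, predicted-gene or EST names were passed over. Nearest to Ifit1 were the chemokine genes Cxcl10 (a difference of 0.15 in log2 ratio) and Cxcl2 (0.19) and Il1rn (0.24), which encodes an antagonist of the interleukin-1 receptor. Nearest to Ifit2 were Ifit3 (0.34), the nucleotide kinase gene Cmpk2 (0.38) and Ifi204, of the interferon-inducible DNA-sensing family (0.41). Nearest to Ifit3 were Cxcl2 (0.23), Ifi202b (0.28) and Ifit1 (0.29). The Ifit3 values used here average its unequal features, with means of 5.25 and 3.37, so neither feature alone stands at that level. Ifi202b is a mean over 3 features with means from 0.06 to 6.24, and 5 of its values were at the ceiling of the table. Of these other genes only Cxcl10 had a core in its promoter window, 1 copy that began 213 bases before the start, while Ifi204 had no window in the table used.

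The IFIT genes were set beside lists of the pathway they belong to, whose counts read against the 17.3% higher and 16.8% lower among all tested genes. Other interferon-stimulated effector genes rose in 30 of 31 tested cases and fell in 1, with a median log2 ratio of 3.02. Ifi204 rose by 4.72 ± 0.17 and Rsad2, which encodes the antiviral enzyme viperin, by 4.53 ± 0.29, while Ifi27 fell by 0.30 on the log2 scale. The list includes Ifitm2 and Ifitm3, membrane proteins that are named here, outside the naming rule, because their symbols resemble those of the IFIT genes, at 0.46 ± 0.12 and 0.90 ± 0.11 (2 sets for Ifitm3). All 11 tested genes of the list of viral RNA sensors and RNA-activated enzymes rose, with a median of 2.08. That list includes Trim25 and Sting1, at 0.66 ± 0.06 and 0.22 ± 0.05. They are named here, outside the naming rule, because neither is itself such a sensor or enzyme. Ifih1, the sensor MDA5, rose by 3.90 ± 0.16 and Zbp1, a sensor of Z-form nucleic acids, by 3.60 ± 0.18.

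Genes of interferon induction and signalling rose in 13 of 19 cases and fell in 1, with a median of 0.91. Ifnb1, which encodes interferon beta, rose by 4.30 ± 0.55 and Usp18, the ISG15 protease that damps interferon receptor signalling, by 3.78 ± 0.28. Stat2 and Irf9, transcription factors downstream of the interferon receptor that were named here after their values were seen, rose by 2.65 ± 0.05 and by 0.99 ± 0.20. The receptor subunit gene Ifnar2 fell by 0.31 on the log2 scale. Genes for mRNA capping and translation initiation, which include the partners of IFIT proteins, rose in 4 of 14 cases and fell in 0, with a median of 0.07, against 17.3% of all tested genes that were higher. Cmtr1, the enzyme that methylates the first ribose of capped mRNA and so marks host RNA, rose by 0.69 ± 0.18 and Rnmt, the cap guanine methyltransferase, by 0.18 ± 0.06. Of the 8 tested eIF3 genes, 1 rose, a share near that over all genes. It was Eif3j1, named after its value was seen, at 0.15 ± 0.04, and the others ran from -0.18 to 0.13 without passing.

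**Figure D4:**
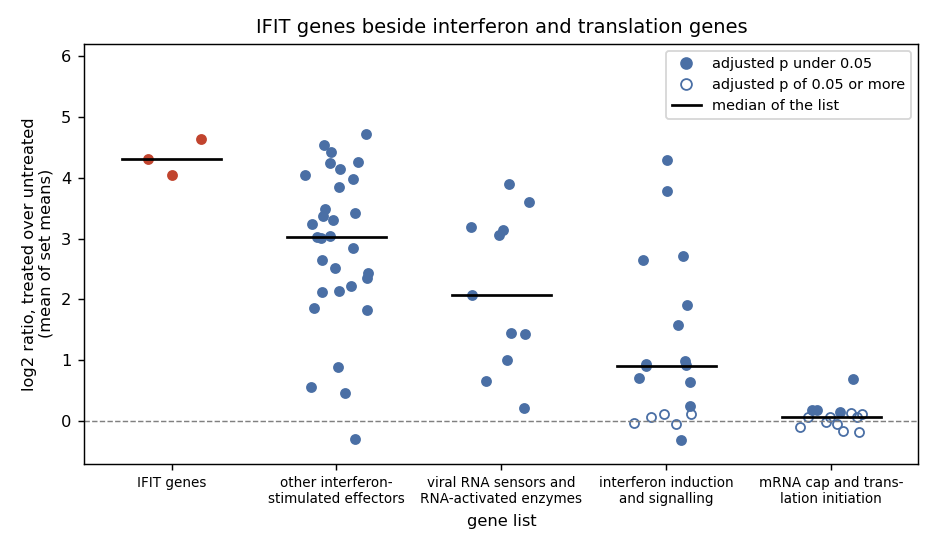
Log2 ratio of treated over untreated RNA (vertical axis, mean of set means) for the 3 IFIT genes and the tested genes of 4 lists (horizontal axis). Filled points had an adjusted p under 0.05 in limma, open points did not, and bars are list medians. The IFIT genes lie at 4.05 to 4.65, above the median of each list, and the cap and translation list lies near 0.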

How the data were processed

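The 6 columns hold log2 ratios deposited by the authors for each feature. The base of the logarithm was inferred from the largest value, log2 of 100. How the arrays were scanned and normalized is not given in the sources used here. No channel intensities were used, so signal over background is unknown, and the stated SDs cover only the spread between sets, not differences between features of a gene, dye orientations or treatments of zeros. Features were named from the platform annotation, with symbols updated through gene identifiers to RefSeq of GRCm38.p6 (13694 of 13738 features with 1 symbol matched). Ratios were turned to treated over untreated, values of exactly 0 were set to missing, and a set mean needed both of its arrays. Set means of 14343 features and of 10088 genes (mean of the features with most set means) were compared with 0 by limma 3.58.1 (lmFit, eBayes; R 4.3.3), p-values were adjusted over all of them by Benjamini-Hochberg, and 0.05 was the threshold. The within-set difference of the orientations was tested in the same way. Between arrays, turned ratios correlated with r of 0.705 to 0.899 within an orientation and 0.428 to 0.80 across orientations, over features, which are not independent replicates. Of the genes of a list that passed, the 2 that rose most and the 2 that fell most were named, with the 3 nearest genes of each member and the tested neighbours. Genes named outside this rule are marked where they appear. The members, lists and tests were chosen with earlier results of these data known. Of the list symbols, Rigi was looked up as Ddx58.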

Additional observations from a re-analysis of the deposited data

How the results depend on the processing

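Ifit1, Ifit2 and Ifit3 and their 5 tested features kept their direction and an adjusted p under 0.05 in limma in all 91 combinations of result and alternative run: zeros kept, the 6 arrays as separate replicates, other normalizations, each orientation alone, each set left out and, for genes, the strongest feature. Their log2 ratios ran from 2.16 (Ifit1 with zeros kept) to 5.95 (Ifit3 L32974 with treated RNA in Cy5 alone). Feature NM_008331 was not among them. Except with zeros kept, the values of Ifit1 were those of U43084, so the combinations are not independent. With 1 set left out the counts of called features ran from 2956 to 4822 against 4690, those of called genes from 2033 to 3381 against 3449, the lowest each time without set 3, and those called for orientation were 0, where 1424 to 3600 had an unadjusted p under 0.05. Quantile normalization also gave 0 (3649 unadjusted). Ifit3 minus Ifit2 reversed to 0.57 with the strongest feature of each gene, where the Ifit3 features differ. With zeros kept, Ifit2 minus Ifit1 was 2.48 and Ifit3 minus Ifit1 was 2.15.

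The set number as a replicate block, with a dye term, gave 3569 genes and 4759 features, and it gave 3789 and 5212 without the block. It changed no IFIT call. As deposited, before turning, the deviations of same-numbered arrays from their orientation's mean correlated with r of 0.256, 0.212 and 0.0999 over 12798 features. By this measure 5 of 6 arrays correlated best with their own number. For ratios of treated over untreated these r have the opposite sign, so there same-numbered arrays deviated in opposite directions. Whether same-numbered arrays shared RNA was not tested, and their pairing was a choice made here, not a stated design.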
